A study of Mus musculus with 4 samples.

Results

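Perineuronal nets and the looser matrix around them are built from a small group of proteins, and 10 of their genes were followed here in single-cell RNA-seq counts of sorted brain cells. The members were taken by gene symbol from the 43348 genes of the count matrices: the link proteins Hapln1 and Hapln4, the lecticans Acan, Bcan, Ncan and Vcan, the tenascin Tnr, the protease gene Adamts5 and the heparan sulfate sulfotransferase genes Hs3st2 and Hs3st4. All 10 were found. Hapln1, Hapln4, Vcan, Tnr, Adamts5, Hs3st2 and Hs3st4 were picked by the study from these same cells, so a shared direction among them is not independent evidence.

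The study asked what the NMDA receptor does in interneurons that arise in the medial ganglionic eminence. Cells were sorted from frontal cortex and from hippocampus of juvenile mice of both sexes at postnatal days 18 to 20, and UMI counts of 3′ transcript ends were made with 10x Genomics kits. In every animal, Cre recombinase under the Nkx2-1 promoter switched on TdTomato from the Ai14 allele, and TdTomato-positive cells were collected. WT animals carried intact Grin1, which encodes the obligatory subunit of the receptor, and null animals were littermates with both floxed Grin1 copies. The 4 groups are cortex WT and hippocampus WT with 3 libraries each, and cortex null and hippocampus null with 2 libraries each. Mice were pooled for a preparation, so a library is not 1 animal, and p-values measure the spread between libraries. The main fits took libraries as independent, although cortex and hippocampus libraries of the same replicate number may share a preparation.

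Perineuronal nets are lattices of extracellular matrix that wrap the cell body and proximal dendrites of certain neurons, in cortex most often parvalbumin-expressing interneurons, and they mature during postnatal life. Hyaluronan chains form the backbone. Lecticans, which carry chondroitin sulfate, bind hyaluronan with the help of link proteins, and tenascin-R ties lecticans to each other. Secreted proteases of the ADAMTS family cut lecticans, and sulfotransferases set the pattern on heparan sulfate chains, which bind many secreted factors.

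The libraries differed in depth. Cortex WT replicates 1, 2 and 3 hold 9306756, 14212183 and 28057207 UMIs, and the median kept cell has 7098, 2912.5 and 6499. Hippocampus WT replicates 1, 2 and 3 hold 10555408, 8782181 and 20639002 UMIs with medians of 4411, 1479 and 5752. Cortex null replicates 1 and 2 hold 1488601 and 25688337 UMIs with medians of 6684 and 8786.5, and hippocampus null replicates 1 and 2 hold 3856745 and 47338167 with medians of 8949 and 9763. Of 26987 barcodes 26201 were kept, and 95 barcodes occur in more than 1 library. Cortex null replicate 1 is the smallest library, with 177 kept cells. Cells at or over 30% mitochondrial UMIs, which were left out, lay almost all in null libraries: 287 of 2898 barcodes in cortex null replicate 2 and 265 of 4436 in hippocampus null replicate 2, against 3 in each null replicate 1 and 4 or fewer in every WT library. Replicate 1 of each group was made with version 2 of the chemistry and the others with version 3.

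Hippocampus WT replicate 2 stood apart from the other libraries. Its cells are the shallowest, 99.4% of its neurogliaform cells lie in a cluster that holds at most 9.48% of that class in any other library, and 97.8% of its oligodendrocytes lie in 1 cluster. Of its 370 OPC 261 lie in a cluster that has 11 cells from all other libraries together, and of its 1266 COP 620 and 634 lie in clusters with at most 36 and 24 COP of any other library. Several differences below are therefore given with and without it, while shares of cells pooled over WT libraries include it.

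Clusters were named from marker genes, none of which is a member. The classes are somatostatin cells (SST, with the tyrosine hydroxylase cells in all tests), parvalbumin cells (PVALB), neurogliaform cells (NGFC), glutamatergic neurons (GLUT), oligodendrocyte precursors (OPC), committed precursors (COP), oligodendrocytes (OLIGO), astrocytes (ASTRO) and microglia (MICRO). Choroid plexus (CP) and endothelial (ENDO) cells each reached 10 cells in 1 WT library. WT libraries gave 4853 SST, 1625 PVALB, 1349 NGFC, 878 GLUT, 1221 OPC, 2627 COP, 4784 OLIGO, 374 ASTRO and 209 MICRO cells. Since the sort selects TdTomato-positive cells, the glia are those that came through this sort and not a sample of all glia. Levels are in CPM, the UMIs of a gene scaled to the UMIs of all cells of a class in a library, for classes with at least 10 cells.

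The members lie on 6 chromosomes of GRCm38. Hapln1 (ENSMUSG00000021613.8; chromosome 13, 89539796 to 89611652, plus strand) and Vcan (ENSMUSG00000021614.12; chromosome 13, 89655312 to 89742509, minus strand) face each other with 43659 bases between their 3′ ends. Hapln4 (ENSMUSG00000007594.9; chromosome 8, 70083457 to 70090862, plus strand) and Ncan (ENSMUSG00000002341.8; chromosome 8, 70093085 to 70120873, minus strand) also face each other, only 2222 bases apart. Acan (ENSMUSG00000030607.6; chromosome 7, 79053483 to 79115099, plus strand) ends 2 bases before the opposing Hapln3. Before counting, the authors lengthened gene ends by 4 kb, or to the middle of the gap where another feature lay closer, and both of these last gaps are shorter than that. Bcan (ENSMUSG00000004892.9) lies on chromosome 3 from 87987531 to 88000230, Tnr (ENSMUSG00000015829.9) on chromosome 1 from 159523769 to 159931729 and Adamts5 (ENSMUSG00000022894.5) on chromosome 16 from 85856173 to 85901828. Hs3st2 (ENSMUSG00000046321.7) spans 121391859 to 121501770 and Hs3st4 (ENSMUSG00000078591.1) 123982869 to 124398989, both on chromosome 7.

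Grin1 itself was checked first. In SST cells it lay at 153.3, 254.5 and 232.3 CPM in cortex WT replicates 1 to 3 against 36.7 and 27.9 CPM in the cortex null libraries, and at 118.1, 175.4 and 158.9 CPM in hippocampus WT against 20.5 and 21.8 CPM in hippocampus null. Every null library lay under every WT library of its region in 6 of 6 comparisons over SST, PVALB and NGFC cells. In PVALB cells the values were 111.3, 213.1 and 179.9 CPM in cortex WT, 42.5 and 23.4 CPM in cortex null, 102.2, 165.1 and 125.1 CPM in hippocampus WT and 21.3 and 17.3 CPM in hippocampus null. In NGFC they were 114.2, 184.6 and 164.2 CPM in cortex WT, 36.3 CPM in the 1 cortex null library with enough cells, 120.7, 110.3 and 133.3 CPM in hippocampus WT and 34.3 and 15.7 CPM in hippocampus null. The log2 difference in SST cells was −2.74 in cortex and −2.81 in hippocampus (edgeR adjusted p = 0.0317 and 0.0267), which missed the adjusted p of 0.01 set for a call, while DESeq2 called Grin1 in all 5 genotype comparisons of these classes. A 3′ tag outside the deleted part checks nothing, and where the tags lie was not examined. In GLUT, where the paper describes no such loss, Grin1 lay at 141.0, 243.3 and 177.7 CPM in cortex WT and 44.0 CPM in cortex null replicate 2. Hippocampal GLUT had 53.4 and 218.3 CPM in WT and 98.0 CPM in null replicate 2. Each null value rests on 1 library, and GLUT was not tested.

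**Figure D1:**
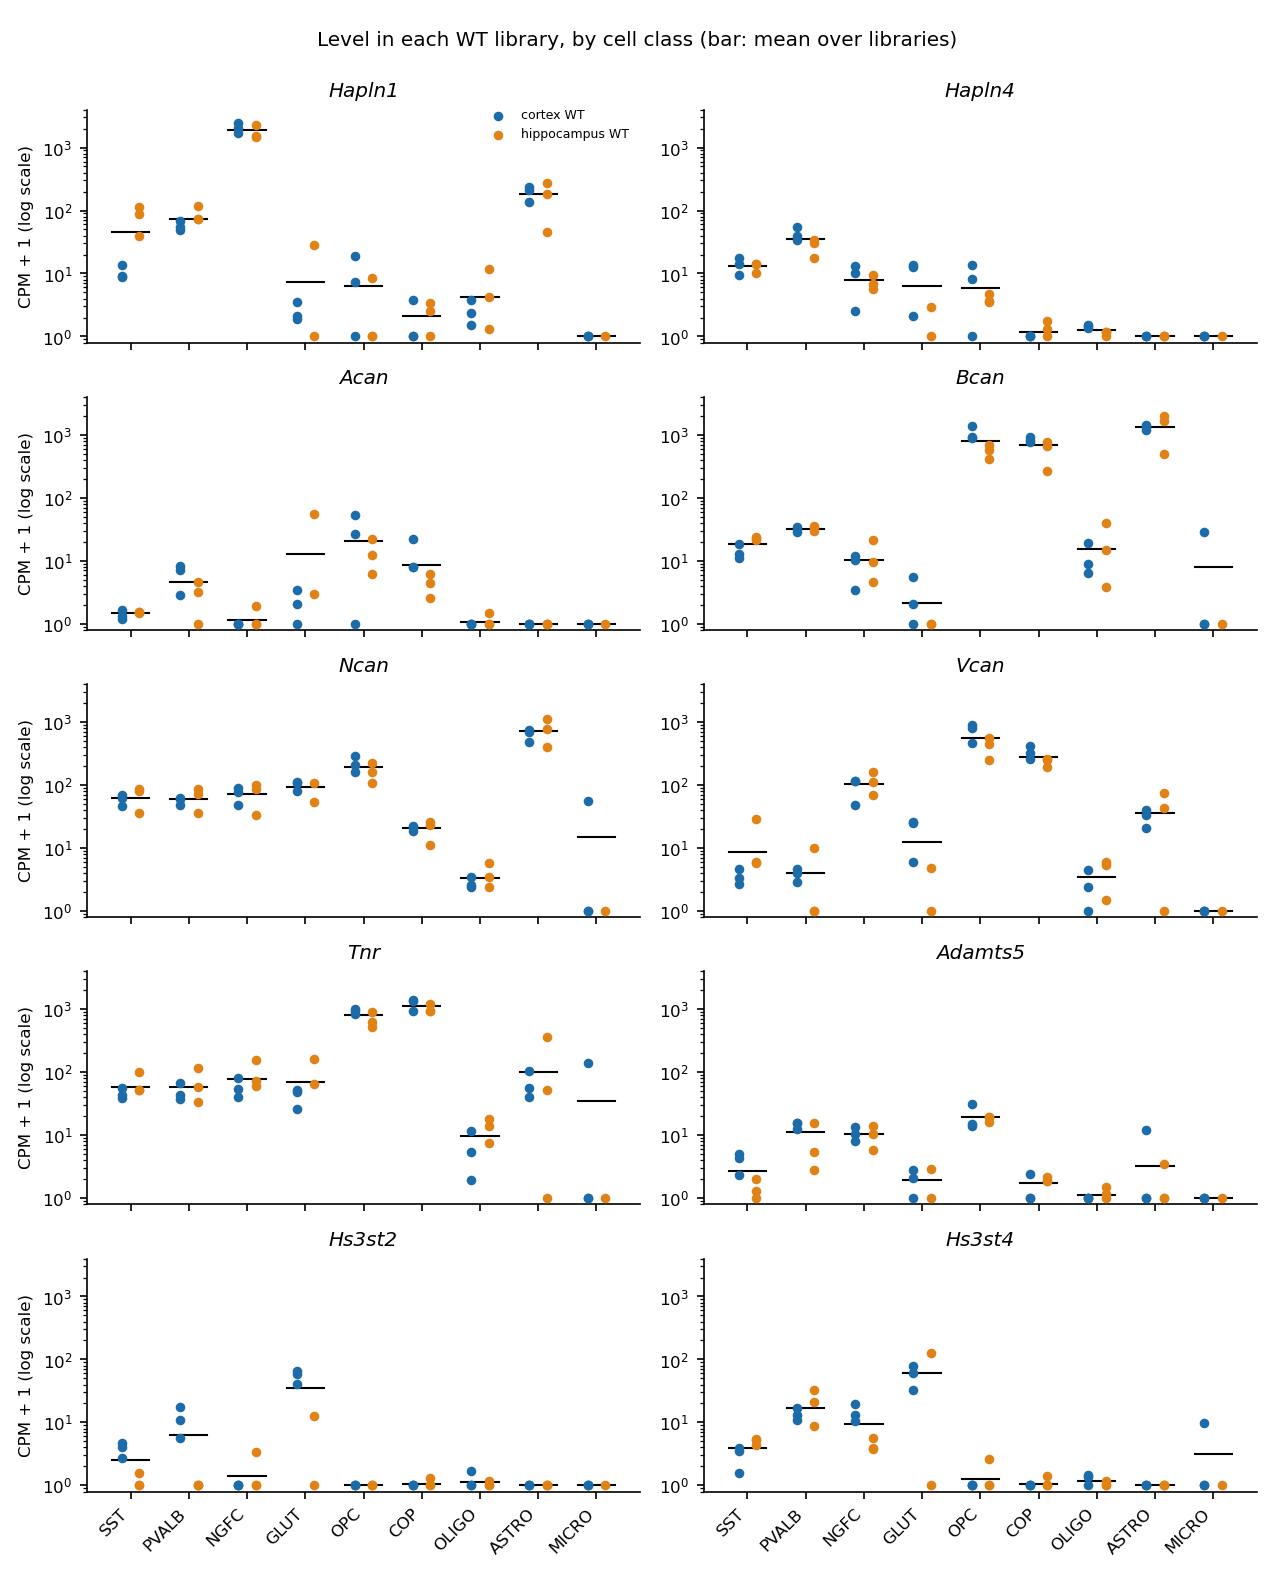
Level of each of the 10 genes in WT libraries by cell class, as CPM with 1 added on a log axis; each point is a library (blue cortex, orange hippocampus) and each bar the mean over libraries. Hapln1 peaks in NGFC at a mean of 1914.1 CPM, Bcan and Ncan in astrocytes, Vcan in OPC, Tnr in COP, and Hs3st2 and Hs3st4 in GLUT.

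Hapln1 encodes a link protein that fastens lecticans to hyaluronan. Among WT cells it was by far highest in NGFC, at 1728.2, 2037.3 and 2414.4 CPM in cortex and 1475.4, 1531.6 and 2297.7 CPM in hippocampus. The mean of 1914.1 CPM ± 396.5 (SD, n = 6) stood clear of the next class, ASTRO, at 180.7 ± 81.0 CPM, whose libraries overlapped PVALB at 71.9 ± 24.7 CPM. That overlap came from hippocampus WT replicate 2 alone, with 44.8 CPM in ASTRO (2 UMIs) and 117.9 CPM in PVALB; without it ASTRO spanned 136.2 to 270.3 CPM and PVALB 48.8 to 73.0 CPM. SST followed at 44.5 ± 45.1 CPM, and GLUT averaged 6.30 CPM. No UMI of Hapln1 was counted in 209 MICRO cells, which allows up to 1.75% of cells with a UMI (upper bound of the exact 95% interval) at their median depth of 1096 UMIs and sets no limit on cells that express the gene. When the members and all other matrix genes were kept out of the clustering, the NGFC mean was 1960 CPM.

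A UMI of Hapln1 was found in 1175 of 1349 WT NGFC (87.1%, exact 95% interval 85.2 to 88.8%). The share was 22.0% in PVALB and 8.08% in SST cells. In OLIGO, a class not known for this gene, it was 0.606% at a median depth of 3749.5 UMIs per cell, close to the 3507 of NGFC. After each cell was thinned to 1000 UMIs, which left out 148 NGFC and 537 OLIGO, the shares were 75.9% and 0.212%. These intervals and those below cover counting error alone. Of the 433 NGFC with a UMI of Vcan, 420 also had one of Hapln1, in a class where 87.1% of all cells had one.

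The regions were first compared in WT cells. In SST cells Hapln1 lay at 8.0, 7.91 and 12.7 CPM in cortex WT and at 38.8, 113.0 and 86.6 CPM in hippocampus WT. All 3 hippocampal libraries lay above all 3 cortical ones, with a ratio of means of 8.34. Null cells showed the same split, with 5.55 and 12.8 CPM in cortex and 47.8 and 106.2 CPM in hippocampus, a ratio of 8.39. The log2 difference in WT was 3.0 (SE 0.42, edgeR adjusted p = 0.0336), which missed the adjusted p of 0.01 required for a call. With the replicate number as a block it was 2.93 (SE 0.27, edgeR adjusted p = 2.89e-06) and passed, as it did in DESeq2 at 3.0 (SE 0.44, adjusted p = 8.07e-09). Within replicates 1, 2 and 3 it was 2.15, 3.68 and 2.68, and without hippocampus WT replicate 2 it was 2.62 (edgeR adjusted p = 0.0389).

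In this comparison edgeR called 5 of 11953 genes (0.0418%), 4 of them higher in hippocampus, and no member, with 896 genes at an unadjusted p under 0.05. The block raised the calls to 340 (2.84%) and DESeq2 gave 134 of 11946 (1.12%), with Hapln1 the 1 member in each. The edgeR count of 5 was 0 without cortex WT replicate 1, 2 or 3 or hippocampus WT replicate 3, 1 without hippocampus WT replicate 1 and 5 without hippocampus WT replicate 2. SST cells were spread differently over clusters: cluster 7 held 69.6% of the class in hippocampus WT replicate 2 and 19.8% or less in every other WT library, and cluster 4 held 40.9% in hippocampus WT replicate 1 and 21.9% or less in the others. Within cluster 4 Hapln1 lay at 64.9, 205.8 and 186.6 CPM in hippocampus against 28.4, 17.2 and 21.3 CPM in cortex WT, and within cluster 7 at 72.2, 67.7 and 101.9 CPM against 0, 7.88 and 0 CPM, both without overlap. Cluster 8 had no cell of hippocampus WT replicate 2, and in it Hapln1 lay at 30.8 and 34.7 CPM in the other hippocampus WT libraries against 2.2, 7.24 and 6.96 CPM in cortex WT, again without overlap. Cluster 24 had enough cells in 1 hippocampus WT library, replicate 2, at 43.0 CPM against 0, 2.29 and 0 CPM. The regions overlapped in cluster 10, with 8.02, 141.4 and 147.2 CPM against 0, 4.01 and 9.85 CPM, and in cluster 16, with 15.9 and 0 CPM in hippocampus WT replicates 1 and 3 against 8.13, 1.7 and 17.3 CPM. In the tyrosine hydroxylase cells alone the regions overlapped, with 15, 7.48 and 16.4 CPM in cortex WT and 14.7, 0 and 8.11 CPM in hippocampus WT.

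**Figure D2:**
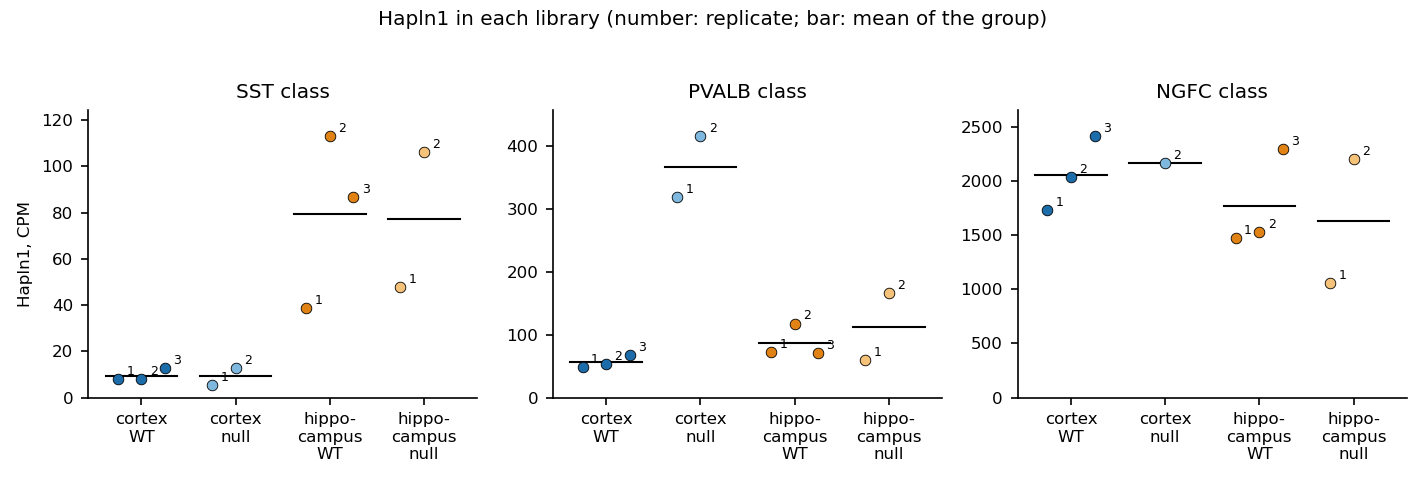
Hapln1 in CPM in each library of SST, PVALB and NGFC cells, by region and genotype; numbers give the replicate and bars the group mean. Hippocampal SST libraries lie above the cortical ones in both genotypes, and the cortex null PVALB libraries, at 318.7 and 416.4 CPM, lie above every other PVALB library.

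The deletion was examined by comparing null with WT in each region. In PVALB cells of cortex Hapln1 lay at 48.8, 52.8 and 67.3 CPM in WT and at 318.7 and 416.4 CPM in null. Both null libraries stood above all WT libraries, 6.53 times as high on average. In hippocampus the values were 73.0, 117.9 and 71.3 CPM in WT and 59.7 and 166.1 CPM in null, and the groups overlapped. The cortical log2 difference was 2.71 (SE 0.37, edgeR adjusted p = 0.0145), 2.68 within replicate 1 and 2.96 within replicate 2. It passed with the replicate block (2.72, SE 0.33, edgeR adjusted p = 0.00795) and in DESeq2 (2.71, SE 0.39, adjusted p = 4.2e-08). The hippocampal difference was 0.41 (SE 0.38, edgeR adjusted p = 1.0), and the interaction of genotype and region was −2.31 (SE 0.54, unadjusted p = 0.000695, edgeR adjusted p = 1.0).

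The full fit made no call, and leaving out single libraries of hippocampus moved Hapln1 across the threshold. Among refits with 1 library left out, none without a cortex WT library passed. Without hippocampus WT replicate 2 the edgeR adjusted p was 0.00275, without hippocampus null replicate 1 it was 0.00468 and without hippocampus null replicate 2 it was 0.00487, all under the threshold of 0.01. The cause of these changes was not tested. With no cell left out on quality the log2 difference of Hapln1 was 2.64, and with a stricter filter (at least 1000 genes, at most 10% mitochondrial UMIs) 2.72. It was 1.22 at a clustering resolution of 0.6 and 1.32 without integration. In the full comparison of cortical PVALB cells edgeR called 0 of 9757 genes (0.0%), with 359 at an unadjusted p under 0.05, of which 4 are members (Hapln1, Hs3st2, Adamts5 and Hs3st4) out of 8 tested. The block gave 4 genes (0.041%) and DESeq2 14 of 9753 (0.144%), with Hapln1 in both and Hs3st2 in the latter. The median log2 difference of the 8 members tested was 0.91, against −0.01 over all genes. Hapln1, Hs3st2, Adamts5 and Hs3st4 were reported by the study as increased in cortical SST or parvalbumin cells of the same data. Neither their number under that p nor the median is therefore independent evidence.

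The makeup of the PVALB class moved with this result. Clustering that left out the members and the matrix genes split the class into a large cluster, one led by Pthlh and one led by Crabp1. The paper describes a cortex-enriched PVALB group with Crabp1, Hapln1, Nkx2-1 and neurogliaform genes, recovered more often after Grin1 loss. It does not exclude that Nkx2-1-positive cells of striatum entered the data. In its WT sections Nkx2-1-positive cells did not stain for parvalbumin, though it allows that weakly stained ones were missed. Whether the Crabp1 cluster here is that group was not tested. The Crabp1 cluster held 7.14, 2.17 and 2.63% of PVALB cells in cortex WT replicates 1 to 3 and 25.8% (8 of 31) and 21.9% (58 of 265) in cortex null replicates 1 and 2. In hippocampus it held 0, 1.32 and 2.27% in WT and 0 and 3.17% in null. The Pthlh cluster held 10.7, 12.3 and 4.53% in cortex WT, 6.45 and 27.9% in cortex null, 28.3, 35.5 and 12.5% in hippocampus WT and 23.5 and 33.5% in hippocampus null. The large cluster was thus 82.1, 85.5 and 92.8% of the class in cortex WT but 67.7 and 50.2% in cortex null. Hapln1 in the Crabp1 cluster lay at 485.6, 846.2 and 866.1 CPM in cortex WT and at 1452.2 CPM in cortex null replicate 2, the other null library having under 10 such cells. In the large cluster it was 23.8, 33.6 and 42.9 CPM in cortex WT against 66.5 and 71.9 CPM in cortex null, and these groups did not overlap. In the Pthlh cluster it was 0, 55.0 and 42.6 CPM in cortex WT and 98.0 CPM in cortex null replicate 2. With the Crabp1 cluster of the clustering on all genes taken out of the class, the cortical log2 difference of Hapln1 was 1.19 (SE 0.37, edgeR adjusted p = 1.0) and the interaction −0.73. In the largest cluster of that clustering alone, an alternative chosen after seeing the data, it was 1.08 (SE 0.40, edgeR adjusted p = 0.999) in cortex and 1.47 (SE 0.42, edgeR adjusted p = 0.994) in hippocampus, and the interaction was 0.39 (SE 0.59, edgeR adjusted p = 1.0). In hippocampus Hapln1 in that cluster lay at 22.4, 48.0 and 34.5 CPM in WT and at 48.2 and 136.3 CPM in null, which did not overlap, the closest libraries being 48.0 and 48.2 CPM. With the members and matrix genes left out of the clustering, the large cluster had 22.0, 74.8 and 42.6 CPM in WT and 49.7 and 146.6 CPM in null, which overlapped.

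**Figure D3:**
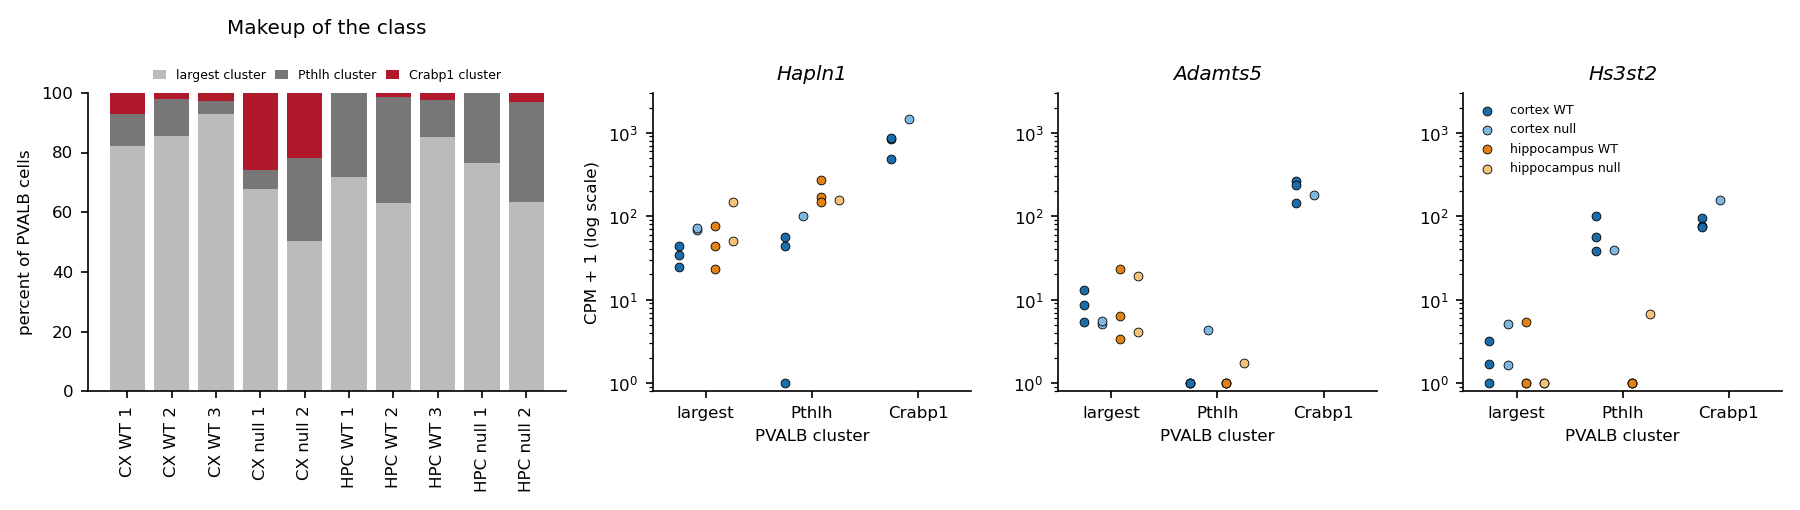
Left, share of PVALB cells in each of 3 clusters, in percent, for each library; right, Hapln1, Adamts5 and Hs3st2 in those clusters as CPM with 1 added on a log axis, 1 point per library with at least 10 cells. Clusters were made without the members; the Crabp1 cluster is 25.8 and 21.9% of the class in the cortex null libraries and at most 7.14% elsewhere, and Hapln1 and Adamts5 are highest in it.

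In NGFC, where Hapln1 was most abundant, the genotypes did not separate. Hippocampus null lay at 1054.0 and 2200.4 CPM, on either side of most WT values, and the single cortex null library with enough cells lay at 2167.4 CPM. The log2 difference in hippocampus was −0.13, and that between regions in WT −0.19. Cortex NGFC could not be tested for genotype because cortex null replicate 1 has 4 such cells.

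Hapln4 encodes the link protein that partners Bcan in brain matrix. It was highest in PVALB at 33.8 ± 12.1 CPM (SD, n = 6 WT libraries), with SST at 12.4 ± 3.05 CPM and NGFC at 6.95 CPM, and it was at 0 in ASTRO and MICRO. The PVALB and SST ranges overlapped. The tyrosine hydroxylase cells within SST, at 31.5 ± 17.9 CPM, also overlapped PVALB, and in cortex WT they averaged 43.4 CPM against 41.5 CPM. A UMI was found in 20.3% of PVALB cells (median depth 6845) and in 0.105% of OLIGO (median 3749.5), or 3.38% and 0% after thinning, which left out 28 PVALB cells. In PVALB cells Hapln4 lay at 37.7, 53.6 and 33.2 CPM in cortex WT and 74.4 and 58.9 CPM in cortex null, and at 29.2, 32.7 and 16.5 CPM in hippocampus WT and 21.3 and 72.1 CPM in hippocampus null. The cortical null libraries exceeded all cortical WT ones, while the hippocampal groups overlapped. The log2 differences were 0.65 (SE 0.41) in cortex and 1.03 (SE 0.45) in hippocampus, both at an edgeR adjusted p of 1.0. Within replicates 1 and 2 the cortical value was 0.96 and 0.13. The SST class as a whole had 16.8, 13.3 and 8.5 CPM in cortex WT, and its tyrosine hydroxylase cells alone 60.0, 40.4 and 29.9 CPM.

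Acan encodes aggrecan, the lectican most used to define perineuronal nets. Its counts were sparse in every class, with means of 19.4 ± 19.1 CPM in OPC, 7.48 ± 6.87 in COP and 3.51 ± 2.74 in PVALB, all overlapping. The GLUT mean of 11.8 CPM rests on hippocampus WT replicate 2, where 1 UMI in 14 cells gives 53.4 CPM, and on that account GLUT ranks above OPC when cortex WT replicate 3 is left out. In PVALB cells Acan lay at 1.84, 6.24 and 7.16 CPM in cortex WT, 3.54 and 3.64 CPM in cortex null, 0, 3.63 and 2.20 CPM in hippocampus WT and 4.26 and 3.19 CPM in hippocampus null. The groups overlapped in both regions. A UMI was seen in 3.94% of PVALB cells, 3.69% of OPC (median depth 1501) and 0.0209% of OLIGO. Thinning left 0.564% of PVALB cells and 1.67% of OPC, and 325 OPC were left out. In OPC of hippocampus, null libraries at 0 and 2.68 CPM lay under the WT libraries at 11.4, 5.20 and 20.8 CPM (log2 difference −2.53, SE 1.44, edgeR adjusted p = 0.998, and −2.82 without hippocampus WT replicate 2).

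Bcan encodes brevican, a brain-specific lectican made largely by glia. ASTRO (1342.8 ± 504.1 CPM), OPC (808.3 ± 329.8) and COP (696.9 ± 225.8) had overlapping ranges and stood clear of all interneurons. ASTRO overlapped COP only through hippocampus WT replicate 2 (493.1 CPM in ASTRO); without it ASTRO spanned 1186.5 to 1996.1 CPM and COP 652.8 to 908.5 CPM. PVALB cells lay at 31.3 ± 2.58 CPM (SD, n = 6), above every library of the SST class as a whole (17.5 ± 5.48 CPM). The tyrosine hydroxylase cells within that class, at 31.6 ± 12.8 CPM, overlapped PVALB. In PVALB cells the libraries lay close together, with 31.3, 33.4 and 28 CPM in cortex WT, 28.3 and 32.2 CPM in cortex null, 32.1, 34.5 and 28.5 CPM in hippocampus WT and 25.6 and 40.0 CPM in hippocampus null. A UMI was found in 75.1% of ASTRO at a median depth of 1998 UMIs and in 0.478% of MICRO at 1096, or 69.9% and 0.870% after thinning, which left out 85 ASTRO and 94 MICRO cells.

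Between regions Bcan was ordered oppositely in the sums over SST cells and over precursors. In SST cells it was 17.5, 9.93 and 11.8 CPM in cortex WT and 20.2, 22.1 and 23.2 CPM in hippocampus WT, and the groups did not overlap (log2 difference 0.69, SE 0.29, edgeR adjusted p = 0.634). In OPC it was 1357.8, 913.9 and 901.3 CPM in cortex WT and 574.4, 418.8 and 683.3 CPM in hippocampus WT, again without overlap (−0.76, SE 0.36, edgeR adjusted p = 1.0). Within replicates 1, 2 and 3 the SST difference was 0.20, 1.08 and 0.91 and the OPC difference −1.24, −1.12 and −0.40. Without hippocampus WT replicate 2 they were 0.65 and −0.57 (edgeR adjusted p = 0.644 and 0.826). Neither passed, and the difference between the classes was not tested. The SST order was not shared by all clusters, over which the libraries are unevenly spread. In cluster 4 Bcan lay at 27.6, 33.0 and 22.3 CPM in hippocampus WT against 4.48, 1.78 and 4.83 CPM in cortex WT, without overlap. In cluster 8 hippocampus WT replicates 1 and 3, at 11.9 and 6.43 CPM, overlapped cortex WT at 18.2, 13 and 10.4 CPM, with a lower mean. In cluster 7 the values were 0, 19.8 and 0 CPM against 20.4, 15.8 and 29.9 CPM, and clusters 10 and 16 and the tyrosine hydroxylase cells also overlapped. The part of this makeup in the SST difference was not tested.

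Ncan encodes neurocan, a lectican of developing brain that is cut as the matrix matures. ASTRO led at 706.0 ± 255.5 CPM without overlap, followed by OPC at 191.4 ± 63.3 CPM, which overlapped GLUT only through hippocampus WT replicate 2 (106.7 CPM in OPC). GLUT (92.0 CPM), NGFC (71.6 CPM), SST (62.0 CPM) and PVALB (59.3 CPM) formed a plateau of overlapping neuronal classes. COP, at 19.5 ± 5.16 CPM, lay under all of them without overlap, so that OPC and COP ranges, which overlap for Bcan, did not overlap for Ncan. In COP of hippocampus it was 24.9, 10.2 and 22.5 CPM in WT and 7.15 and 8.26 CPM in null, which did not overlap with or without WT replicate 2 (10.2 CPM). This class was not tested. Hippocampus WT replicate 2 had the lowest hippocampal WT value in SST, PVALB and NGFC (34.9, 34.5 and 32.7 CPM).

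Vcan encodes versican, a widely expressed lectican of which precursors of oligodendrocytes are a known source. OPC (564.3 ± 237.6 CPM) and COP (280.4 ± 79.2 CPM) overlapped and lay above all other classes. NGFC came next at 101.7 ± 39.1 CPM, while SST and PVALB averaged 7.48 and 2.94 CPM. A UMI was seen in 55.7% of OPC, 32.1% of NGFC and 0 of 209 MICRO. After thinning the first 2 shares were 38.7 and 10.3%. In SST cells Vcan lay at 1.71, 2.33 and 3.62 CPM in cortex WT and at 4.92, 27.5 and 4.75 CPM in hippocampus WT. The hippocampal libraries were all higher, and replicate 2 alone was far above the others. The log2 difference was 2.15 (SE 0.71, edgeR adjusted p = 0.384), and 0.77 (edgeR adjusted p = 0.753) without that library. Within replicates 1, 2 and 3 it was 1.13, 3.10 and 0.31. SST libraries are unevenly spread over clusters, and not all clusters shared the order. In cluster 8 hippocampus WT replicates 1 and 3 had 0 and 1.29 CPM against 2.2, 1.45 and 1.74 CPM in cortex WT. These rest on 0 to 5 UMIs per library. Clusters 4, 7 and 10 and the tyrosine hydroxylase cells overlapped. In cluster 16 the order held, at 3.98 and 4.33 CPM against 2.03, 0 and 3.05 CPM. The part of this makeup was not tested.

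Tnr encodes tenascin-R, which cross-links lecticans and is made by cells of the oligodendrocyte lineage. COP (1127.9 ± 225.8 CPM) and OPC (806.3 ± 185.1 CPM) overlapped and stood clear of the rest, and the level in mature OLIGO was 8.73 CPM. Interneurons held less, with means of 76.6 CPM in NGFC (40.1 to 155.1 CPM over libraries), 58.2 CPM in PVALB (32.1 to 114.3) and 56.2 CPM in SST (38.3 to 98.3). A UMI was found in 76.1% of COP (median depth 2385) and 0.478% of MICRO (median 1096), and thinning, which left out 348 COP, gave 57.0 and 0.870%. In OPC of hippocampus Tnr was 635.3, 892.3 and 524.5 CPM in WT and 383.3 and 455.6 CPM in null. Both null libraries lay under all WT libraries, but the difference of −0.77 on the log2 scale (SE 0.41) had an edgeR adjusted p of 0.998, and within replicates 1 and 2 it was −0.73 and −0.97. Without hippocampus WT replicate 2, the highest of these libraries, it was −0.47 (edgeR adjusted p = 0.999). COP showed the same order at 1218.0, 939.9 and 926.7 CPM in WT and 672.3 and 814.2 CPM in null, also without replicate 2 of WT, untested. Hippocampus WT replicate 2 had the highest Tnr in SST (98.3 CPM), PVALB (114.3 CPM) and NGFC (155.1 CPM), the reverse of its rank for Ncan. Cortex WT replicate 2 likewise had the highest cortical WT Tnr in these classes (55.6, 66.4 and 79.1 CPM). Its Ncan was the lowest of cortex WT there (44.7, 46.6 and 47.9 CPM).

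Adamts5 encodes a secreted protease that cuts aggrecan and other lecticans. Levels were low, with 18.2 ± 6.42 CPM in OPC, 10.3 ± 5.75 CPM in PVALB and 9.33 ± 3.06 CPM in NGFC, all overlapping. CP cells, in 1 library, had 22.8 CPM (20 UMIs in 96 cells). PVALB cells of cortex lay at 14.7, 14.7 and 11.4 CPM in WT and at 77.9 and 46.4 CPM in null, 4.57 times as high on average and without overlap. Hippocampal PVALB cells overlapped at 14.6, 1.81 and 4.39 CPM in WT and 4.26 and 16.6 CPM in null. The cortical log2 difference was 2.13 (SE 0.45, edgeR adjusted p = 0.119), and 2.33 and 1.60 within replicates 1 and 2. Adamts5 lay at 141.0, 263.3 and 232.0 CPM in the Crabp1 cluster of cortex WT and at 176.9 CPM in that of cortex null replicate 2. In the large cluster it was 7.57, 12.2 and 4.41 CPM in cortex WT and 4.16 and 4.49 CPM in cortex null. Without the Crabp1 cluster the difference turned to −0.57 (edgeR adjusted p = 1.0). In SST cells cortex WT (1.33, 3.41 and 4.04 CPM) lay above hippocampus WT (0, 0.983 and 0.279 CPM). Hippocampus WT holds 3 UMIs there, and 83 of the 87 UMIs of cortex WT lie in cluster 4. SST libraries are unevenly spread over clusters, and the gene was too low there for the main fit.

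Hs3st2 and Hs3st4 encode 3-O-sulfotransferases, which add a late and rare sulfate to heparan sulfate. Hs3st2 was highest in GLUT, at 64.3, 39.5 and 56.7 CPM in cortex WT and 0 and 11.6 CPM in the hippocampus WT libraries with enough cells, and no UMI was counted in 1221 OPC. At their median depth of 1501 UMIs that allows up to 0.302% of cells with a UMI (upper bound of the exact interval) and sets no limit on cells that express the gene. In PVALB cells it lay at 16.6, 9.90 and 4.72 CPM in cortex WT, at 102.7 and 48.9 CPM in cortex null, at 0 in all 3 hippocampus WT libraries, and at 4.26 and 4.55 CPM in hippocampus null. Cortex null stood above cortex WT by a ratio of 7.29 and every cortical library stood above every hippocampal one. Against a floor of 3 counts over all hippocampus WT libraries (1.66 CPM), cortex WT was at least 4.41-fold and hippocampus null at least 2.72-fold higher. The hippocampus null libraries hold 2 and 20 UMIs. In replicate 2, on the clustering on all genes, the largest cluster had 0 of them and the Pthlh cluster 8. The Crabp1 cluster has 9 cells there, and 0, 2 and 2 in hippocampus WT. The part of this makeup was not tested.

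The cortical difference of Hs3st2 in PVALB cells between genotypes was 2.94 on the log2 scale (SE 0.52, edgeR adjusted p = 0.0626), and 2.56 and 2.19 within replicates 1 and 2. DESeq2 called it at 2.93 (adjusted p = 0.00107), and the replicate block gave 2.46 (edgeR adjusted p = 0.0303). Cells of the Crabp1 cluster had 94.0, 75.2 and 72.2 CPM in cortex WT and 155.9 CPM in cortex null replicate 2. The Pthlh cluster had 98.2, 55.0 and 36.9 CPM in cortex WT, 38.5 CPM in cortex null replicate 2 and 0 in hippocampus WT. The large cluster had 2.16, 0 and 0.678 CPM in cortex WT and 4.16 and 0.642 CPM, 1 UMI each, in cortex null. The largest cluster of the clustering on all genes had 2.17, 0 and 0.665 CPM in cortex WT and 19.2 (4 UMIs) and 0 CPM in cortex null. Without the Crabp1 cluster the genotype difference was 1.18 (edgeR adjusted p = 1.0). How far the makeup of the class accounts for the cortical differences of Hapln1, Adamts5 and Hs3st2 was not tested beyond these refits.

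Hs3st4 was also highest in GLUT (58.8 ± 47.3 CPM), then PVALB (16.2 ± 8.94 CPM), NGFC (8.51 ± 6.32 CPM) and SST (3.0 ± 1.39 CPM), with neighbouring ranges overlapping. Between GLUT and PVALB the overlap came from hippocampus WT replicate 2, with 0 CPM in GLUT; without it GLUT lay at 32.2 CPM or more and PVALB at 32.1 CPM or less. A UMI was found in 13.1% of GLUT cells (median depth 1031) and 0.0627% of OLIGO, or 5.97 and 0% after thinning, which left out 426 GLUT cells. In PVALB cells it was 12.0, 15.8 and 9.75 CPM in cortex WT and 24.8 and 29.1 CPM in cortex null, which did not overlap, and 32.1, 20.0 and 7.68 CPM in hippocampus WT and 8.53 and 17.1 CPM in hippocampus null, which did. The cortical log2 difference was 1.17 (SE 0.45, edgeR adjusted p = 1.0), and 1.47 (SE 0.60, edgeR adjusted p = 1.0) without the Crabp1 cluster. The Pthlh cluster, which is 27.9% of the class in cortex null replicate 2 and 4.53 to 12.3% in cortex WT, had Hs3st4 at 29.4, 76.5 and 76.7 CPM in cortex WT and 68.2 CPM in that null library. The large cluster had 0, 0.872 and 1.19 CPM in cortex WT and 0 and 1.93 CPM in cortex null. The part of these shares in the cortical difference was not tested. In the Crabp1 cluster Hs3st4 was at 37.1 CPM in cortex null replicate 2 against 156.6, 169.2 and 144.3 CPM in cortex WT, a difference that rests on 1 null library and was not tested. NGFC of cortex WT, at 12.3, 9.59 and 18.8 CPM, lay above those of hippocampus WT, at 4.69, 2.80 and 2.88 CPM, on 3 to 12 UMIs per library, and the gene was too low there for a test. SST cells had 0.571, 2.48 and 2.92 CPM in cortex WT (3, 16 and 42 UMIs) and 4.37, 3.44 and 4.19 CPM in hippocampus WT (8, 7 and 15 UMIs). That log2 difference was 0.87 (SE 0.53, edgeR adjusted p = 0.92), and 0.05 at a clustering resolution of 0.6. Most SST clusters did not share the order. In cluster 4 Hs3st4 lay at 2.76, 1.57 and 0 CPM in hippocampus WT against 1.49, 3.57 and 5.80 CPM in cortex WT, and clusters 7, 10 and 16 overlapped as well. In cluster 8 the order held, at 14.2 and 6.43 CPM in hippocampus WT replicates 1 and 3 against 1.1, 0 and 1.74 CPM.

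Elsewhere no member was called by edgeR. Between regions in WT, edgeR called 3 of 8837 genes in PVALB cells (0.0339%; 7 members tested, 0 of them at an unadjusted p under 0.05), a count that was 1 without cortex WT replicate 2 and 0 without any other WT library. It was 67 with the block and 24 in DESeq2. In NGFC (7962 genes, 207 at an unadjusted p under 0.05), OPC (4981 genes, 221) and OLIGO (9349 genes, 115) edgeR called 0 (0.0%), while DESeq2 called 5, 1 and 2 genes and the block 4 in NGFC and 14 in OLIGO. Between genotypes edgeR called 0 genes (0.0%) in SST cells of cortex and hippocampus (276 and 462 of 12826 at an unadjusted p under 0.05; 2 and 2 in DESeq2). It called 0 in PVALB cells of hippocampus (313 of 9757; 1 in DESeq2), and 0 in NGFC (316 of 10020; 1 in DESeq2) and OPC of hippocampus (190 of 7392; 0 in DESeq2). In OLIGO of cortex and hippocampus it also called 0 (141 and 142 of 10146; 0 in DESeq2, 2 and 1 with the block). At an unadjusted p under 0.05 the members numbered 3 of 7 in the SST region comparison (896 of all 11953 genes), 1 of 9 in SST cells of hippocampus, 2 of 8 in PVALB cells of hippocampus and 0 of those tested in NGFC, OPC and OLIGO. The interaction of genotype and region gave 0 calls in SST and PVALB cells (62 and 106 genes at an unadjusted p under 0.05; 0 in DESeq2), 1 of them a member, Hapln1 in PVALB cells.

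The wider matrix lists hold 107 other genes of the files, from hyaluronan synthases to chondroitin and heparan sulfate enzymes and net receptors. edgeR called none of them in any comparison. Of 65 tested between regions in SST cells, 8 were higher and 3 lower in hippocampus at an unadjusted p under 0.05 (896 of all 11953 genes in either direction), with a median log2 difference of −0.04 against 0.02 over all genes and 0.69 over the 7 members tested. In PVALB cells of cortex 3 of 50 were higher and 2 lower in null at that p (359 of all 9757 genes in either direction), with a median of −0.07. With the replicate block 6 of the 65 rose and 2 fell in hippocampal SST cells, where the block called 340 of all 11953 genes (2.84%). The rises with the largest values were Nrp1, a semaphorin receptor (2.99), Adamts4, a second lectican-cutting protease (2.23), and Timp3, a protease inhibitor (1.70), and the falls were Nptx2, a synaptic pentraxin (−3.22), and Sema3a, a net-bound guidance factor (−1.17). Nrp1 also rose in hippocampal PVALB cells with the block (3.80) and in DESeq2 (3.79). Hapln2, the link protein of myelinated axons, peaked in OLIGO at 189.1 CPM and fell in hippocampal OLIGO with the block (−1.55).

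Patterns over classes were compared as a description, by Pearson correlation of log2(CPM + 1) over 53 sums of WT libraries and classes, which share libraries and depth. Among members the closest pairs were Hs3st2 with Hs3st4 (r = 0.68), Vcan with Tnr (0.678), Hapln4 with Hs3st4 (0.622) and Bcan with Vcan (0.616), and Bcan ran against Hs3st4 (−0.523). Of 11611 genes that could be named, Hapln1 was most like Gm5607 (0.876), Kcnn2 (0.857) and Sox1 (0.82), and Hapln4 most like Kcnk3 (0.937), Zfp804a (0.89) and Ankrd34b (0.889). Bcan was closest to Timp4 (0.905), Sox21 (0.903) and Tril (0.873), and Ncan to Cpe (0.867), Gm3764 (0.864) and Scg3 (0.856). For Vcan they were Car8 (0.823), Gm4876 (0.784) and Snx22 (0.779), and for Tnr Fyn (0.858), Cacng4 (0.793) and RP23-430H21.1 (0.791). Adamts5, which reaches 20 CPM through the CP class alone, ran closest to Mum1l1 (0.793), Smco4 (0.763) and Spry4 (0.717), Hs3st2 to 9130024F11Rik (0.846), Tnnc1 (0.838) and Kcnh3 (0.819), and Hs3st4 to A830036E02Rik (0.888), Cecr6 (0.879) and Cntn5 (0.876). Acan was too low in every class for this comparison.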

How the data were processed

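The deposited files hold UMI counts of 43348 genes in 4 matrices, 1 per region and genotype, which the authors made with Cell Ranger against mm10 with gene ends lengthened by 4 kb or to the middle of a shorter gap. The labels name version 2.1.1 and the file headers 3.0.2. Each matrix pools its libraries, and the barcode suffix gives the library: cells per suffix match those per replicate in the study's methods. The quality filter required 200 to 6000 detected genes, with mitochondrial UMIs (37 genes) below 30%, and left 26201 cells. Scrublet marked 249 doublets, which stayed in except in an alternative.

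Seurat 5.3.0 in R 4.3.3 integrated and clustered the cells at resolution 1.0. A cluster was named when at least 3 markers of a class reached 20 CPM and exceeded the mean of the clusters, and shallow clusters without such a marker among their 10 top genes, like those with cholinergic markers, stayed unnamed. Sums of UMIs over the cells of a class in a library, where there were at least 10, entered the quasi-likelihood test of edgeR 4.0.16 after TMM scaling and filterByExpr, and p-values were adjusted over all genes tested by Benjamini-Hochberg. Genes were called at an adjusted p below 0.01 when they also changed by 0.144 or more in log2 units (0.1 in natural-log units). Log2 differences are hippocampus minus cortex, or null minus WT in 1 model of the 4 groups. Within-replicate values compare CPM with 1 added. The code was tested on simulated data. Python 3.11.15, numpy 2.4.6, pandas 2.3.3, scipy 1.17.1 and scanpy 1.11.5 did the rest. Positions are from GENCODE vM21 on GRCm38.

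Deviations of cortex and hippocampus WT libraries of the same number from their group means correlated at 0.0326 to 0.885 over 15 pairs, against −0.773 to 0.267 for other pairs. All exceeded 0.1 in SST, PVALB, NGFC and OLIGO, where the number was taken as pairing (it also marks chemistry and preparation), but not in OPC. In genotype fits the block also joins WT and null libraries of the same number, and that match was not checked.

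The members and lists were chosen with earlier results of these data known. Genes named are the members, Grin1, up to 3 rises and 3 falls per comparison among other matrix genes past the thresholds with the largest log2 change, and the 3 genes most like each member that reaches 20 CPM in a class. Alternatives were DESeq2 1.42.0, library-size scaling, no low-count filter, an adjusted p of 0.05, the replicate block, only the 2 groups compared, 20 cells, other cell filters, doublets removed, resolutions 0.6 and 1.4, no integration, clustering without matrix genes, no mitochondrial genes, changed class makeup and each library left out. Other experiments of the study were not analysed here.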

Additional observations from a re-analysis of the deposited data

Results flagged for a closer look

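Hapln1 in PVALB cells went opposite ways between regions in the genotypes. The ratio of hippocampal to cortical means was 1.55 in WT and 0.307 in null, and in each genotype no hippocampal library overlapped a cortical one. The interaction was −2.31 on the log2 scale (edgeR adjusted p = 1.0). In the largest PVALB cluster alone the regions overlapped in both genotypes, with 23.9, 35.4 and 43.0 CPM in cortex WT against 22.4, 48.0 and 34.5 CPM in hippocampus WT, and 81.6 and 69.1 CPM in cortex null against 48.2 and 136.3 CPM in hippocampus null. The log2 difference between regions there was 0.02 in WT (SE 0.36, edgeR adjusted p = 0.999) and the interaction 0.39 (edgeR adjusted p = 1.0). In the Pthlh cluster the WT regions did not overlap, with 0, 55.0 and 42.6 CPM in cortex against 166.9, 129.9 and 270.2 CPM in hippocampus, and the null libraries with enough cells had 98.0 and 153.4 CPM. With the Crabp1 cluster left out of the class, the difference between regions in WT was 1.1 (SE 0.30, unadjusted p = 0.00384, edgeR adjusted p = 0.453). In that refit the interaction was −0.73 (SE 0.52, edgeR unadjusted p = 0.18), against −2.31 in the full class.

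Hapln4 gave opposite ratios between genotypes in 2 cortical classes. The ratio of null to WT means was 1.61 in PVALB and 0.308 in OLIGO, without overlap in either. The OLIGO values rest on 1 UMI in each cortex WT library and on 0 (18 cells) and 2 UMIs in the cortex null libraries, too few to show a direction. The difference between the classes was not tested.

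Bcan and Hs3st4 each went opposite ways between regions of WT animals. The ratio of hippocampal to cortical means of Bcan was 1.67 in SST cells and 0.528 in OPC. For Hs3st4 it was 2.01 in SST cells and 0.255 in NGFC. All libraries lay on the stated side in the sums over a class, and the differences between classes were not tested. Within SST clusters the order held without overlap in cluster 4 but not in cluster 8 for Bcan, and in cluster 8 but not in cluster 4 for Hs3st4, whose SST values rest on 3 to 42 UMIs per library. The SST libraries are unevenly spread over these clusters, and the part of that was not tested.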

How the results depend on the processing

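Of 2373 refits of a member under the alternatives, 2200 kept direction and side of the threshold, 15 passed that had not, and 158 uncalled differences changed sign. No member was called at the outset, so no call could be lost or reversed. The 15 are Hapln1 in PVALB cells of cortex (8 settings) and between regions in SST cells (4), Hs3st2 (2) and Adamts5 (1) in PVALB cells of cortex. They leave out Hs3st2 between regions in PVALB cells, which passed with no low-count filter but was too low to be fitted with it. The log2 range was 2.35 to 3.31 for Hapln1 between regions in SST cells, 1.08 to 2.89 for Hapln1, 1.1 to 3.49 for Hs3st2 and −0.58 to 2.58 for Adamts5 in PVALB cells of cortex.

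Members called numbered 0 in each comparison. Between regions in SST cells the count was 1 with DESeq2, with no low-count filter, at an adjusted p of 0.05 and with the replicate block. In PVALB cells between regions it was 1 with no low-count filter (Hs3st2). In PVALB cells of cortex it was 2 with DESeq2, 3 with no low-count filter, 1 at an adjusted p of 0.05, 1 with the replicate block, 1 with only the 2 groups compared, and 0 to 1 with 1 library left out. The cause was not tested. The block, which uses the pairing of replicate numbers, changed no other call of a member.

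Over all genes, calls between regions in SST cells went from 5 to 157 with no low-count filter, 34 at an adjusted p of 0.05, 2 at resolution 0.6, 1 without integration and 3 with doublets removed. In PVALB cells between regions they went from 3 to 91 with no filter, 8 at 0.05 and 1 in the largest cluster. In PVALB cells of cortex they went from 0 to 56 with no filter, 8 at 0.05, 12 with only the 2 groups compared and 6 without hippocampus WT replicate 2. With no low-count filter the counts of 0 became 35 (NGFC), 10 (OPC) and 5 (OLIGO) between regions, 21 and 19 in SST cells of cortex and hippocampus, 13 in PVALB cells of hippocampus, 24 in NGFC, 6 in OPC and 22 in OLIGO of hippocampus, 10 in OLIGO of cortex, and 1, 5 and 2 for the interaction in SST, PVALB and OLIGO. SST cells of cortex and of hippocampus had 1 call each at an adjusted p of 0.05, and OPC had 1 between regions without hippocampus WT replicate 2. In OPC same-numbered libraries correlated at 0.368, 0.426 and 0.0326, and the number was not taken as pairing. There the block gave 40 calls between regions and 11 between genotypes in hippocampus, none a member.

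The top class stayed for 9 to 10 of the 10 members with 1 library left out (Acan changed to GLUT without cortex WT replicate 3), and the class with the highest share of cells for 8 of 10 after thinning (Acan and Adamts5 changed from PVALB to OPC). Of 1070 levels 11 moved by over 1 SD. Depth limits the sparse genes most, since 1 UMI can set a library's level, and cortex null rests on 1 small library and 1 large one.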
